A study of Mus musculus with 2 samples.

Results

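Ly6a, Clu, Anxa1, Spp1 and Il33 are genes used to recognise fetal-like and regenerating intestinal epithelium, and open chromatin around them was compared between control and Taf4-inactivated enteroids. The 5 genes were taken by name from 22380 protein-coding genes of the annotation. A peak within 1 kb of any annotated start site of a gene was called its start site peak, and every other peak in the gene body or within 50 kb on either side was called distal. By this rule the 5 genes held 28 of 90445 peaks in the control list and 23 of 71282 peaks in the Taf4-inactivated list.

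The assay was ATAC-seq, which cuts and tags open DNA with a transposase. The cells were enteroids, epithelial cultures that were started from crypts of the ileum of mice (strain C57Bl6/129sv) at an age of 4 months. Control enteroids (genotype label WT) were Taf4 lox/lox, and Taf4-inactivated enteroids (label KO) were Taf4 lox/lox::VilCreERT2, in which the epithelial villin promoter drives a Cre recombinase that deletes Taf4 once 4-hydroxytamoxifen (4-OHT) is added. Both were exposed to 1 µM 4-OHT for 3 days, so the exposure was common to both and only one of them carried Cre. The peaks do not show the deletion of Taf4 itself, and the labels were taken as given. There was 1 library per genotype. Every difference given here is therefore a difference between these 2 libraries and has no replicate check, and no p-value between genotypes was computed.

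Adult intestinal epithelium is renewed by Lgr5+ stem cells at the crypt base. After injury, and in cultured fetal epithelium, cells carry another program that is marked by the 5 genes and is known to depend on YAP/TEAD, AP-1 and inflammatory signals. Clu encodes clusterin, a secreted chaperone that marks cells able to rebuild the stem cell pool. Spp1 encodes osteopontin, a secreted matrix glycoprotein, and Il33 encodes an alarmin cytokine that is held in the nucleus and released on damage. Ly6a encodes Sca-1, a surface protein anchored by a lipid, and Anxa1 encodes annexin A1, a membrane-binding protein of the resolution of inflammation. Taf4 encodes a subunit of TFIID, the general factor that recognises core promoters, among them those with a TATA box.

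The promoters of the members without a peak at their outermost start site, and of the inner start site of Il33, are shown. The lists differ at the inner Il33 promoter by 1 low-ranked Taf4-inactivated peak (percentile 16.5, −log10 q 1.32), and the others lie under no peak. RefSeq promoter sequences of assembly GRCm38.p6 ran from 250 bases before to 50 bases after the start. They were available for 3 of the 5 genes, Anxa1, Spp1 and Il33. The promoter set used held none for Ly6a or Clu, so theirs were not searched. All 5 promoters of these 3 genes matched the mm9 genome exactly and once. The sequences of 4 of them run 5′ to 3′ in the direction of transcription, and capitals mark matches to the motifs spelled out below.
Anxa1 (GRCm38.p6 chr19:20390622-20390921, minus strand; mm9 chr19:20465112-20465411): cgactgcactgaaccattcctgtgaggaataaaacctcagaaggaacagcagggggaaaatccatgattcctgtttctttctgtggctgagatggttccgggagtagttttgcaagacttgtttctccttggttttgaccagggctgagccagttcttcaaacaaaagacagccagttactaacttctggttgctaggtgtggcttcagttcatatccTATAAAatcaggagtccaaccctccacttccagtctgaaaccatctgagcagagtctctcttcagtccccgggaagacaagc
Spp1 (GRCm38.p6 chr5:104434861-104435160, plus strand; mm9 chr5:104863880-104864179): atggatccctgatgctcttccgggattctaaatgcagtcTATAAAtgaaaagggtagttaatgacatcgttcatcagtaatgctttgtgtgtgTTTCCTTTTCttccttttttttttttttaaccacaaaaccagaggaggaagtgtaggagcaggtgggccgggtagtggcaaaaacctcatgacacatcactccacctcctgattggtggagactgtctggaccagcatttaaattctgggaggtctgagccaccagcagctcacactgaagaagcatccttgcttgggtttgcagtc
Il33, outermost start site (GRCm38.p6 chr19:29924863-29925162, plus strand; mm9 chr19:29999353-29999652): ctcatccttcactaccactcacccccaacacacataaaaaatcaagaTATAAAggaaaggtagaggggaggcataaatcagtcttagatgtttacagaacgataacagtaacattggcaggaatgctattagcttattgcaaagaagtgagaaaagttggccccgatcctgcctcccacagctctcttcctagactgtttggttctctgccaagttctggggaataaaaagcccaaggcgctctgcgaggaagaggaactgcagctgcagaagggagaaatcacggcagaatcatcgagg
Il33, inner start site (GRCm38.p6 chr19:29945540-29945839, plus strand; mm9 chr19:30020030-30020329): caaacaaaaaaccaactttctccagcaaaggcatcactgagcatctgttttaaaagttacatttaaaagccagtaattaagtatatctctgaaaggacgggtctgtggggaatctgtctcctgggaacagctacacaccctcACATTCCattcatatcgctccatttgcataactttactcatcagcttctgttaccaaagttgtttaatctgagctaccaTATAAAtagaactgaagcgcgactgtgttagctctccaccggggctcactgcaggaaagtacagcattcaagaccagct

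Both strands were searched for 6 motifs, and overlapping matches of different motifs were counted each. AP-1, the factor family of injury and stress responses, was searched as TGACTCA. TEAD, the DNA-binding partner of YAP, was searched as ACATTCC. HNF4, a regulator of the enterocyte program, was searched as CAAAGTCCA. For the GATA factors of the gut epithelium the letters were AGATAA. The TATA box, which TFIID contacts through its TATA-binding subunit, was searched as TATAAA, and an interferon response element completed the list. A TATA box match lay in 4 of the 5 member promoters, and such a match is held by 13.6% of 32851 RefSeq promoters. In Anxa1 it began 32 bases before the start, and at the inner start site of Il33 it began 29 bases before. In Spp1 and at the outermost start site of Il33 the match was farther away, at 211 and 203 bases before the start. A TATA box on the sense strand that began between 20 and 40 bases before the start was found in 2 of the 5 member promoters, a range chosen after these matches were seen, and in 1.99% of all promoters. The inner Il33 promoter also held a TEAD match 108 bases before the start, a motif present in 3.85% of promoters, and the Spp1 promoter held the interferon response element, present in 3.44%. The inner Il33 promoter lay partly under a peak of the Taf4-inactivated list alone. That peak began past the TEAD match of the promoter, and no TEAD match lay in it. The other 4 promoters of these 3 genes lay under no peak of either list. A match is a description of the letters and not a measured binding site.

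Distal stretches of 4 peaks are shown as well, of at most 300 bases taken from the centre of the peak. They are the distal Il33 peaks that ranked in the top 25% of both lists, and the highest-ranked distal peaks of Ly6a and Anxa1 that had no counterpart in the other list. They are on mm9, plus strand.
Il33, 13.0 kb before the outermost start site (chr19:29986469-29986768): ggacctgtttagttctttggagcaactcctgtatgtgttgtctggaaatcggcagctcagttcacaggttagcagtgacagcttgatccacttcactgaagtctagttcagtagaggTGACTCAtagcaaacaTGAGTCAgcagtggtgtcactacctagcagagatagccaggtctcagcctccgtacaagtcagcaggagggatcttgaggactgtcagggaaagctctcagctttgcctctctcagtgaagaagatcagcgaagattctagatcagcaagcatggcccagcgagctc
Il33, intron, 23.2 kb after the outermost start site (chr19:30022687-30022986): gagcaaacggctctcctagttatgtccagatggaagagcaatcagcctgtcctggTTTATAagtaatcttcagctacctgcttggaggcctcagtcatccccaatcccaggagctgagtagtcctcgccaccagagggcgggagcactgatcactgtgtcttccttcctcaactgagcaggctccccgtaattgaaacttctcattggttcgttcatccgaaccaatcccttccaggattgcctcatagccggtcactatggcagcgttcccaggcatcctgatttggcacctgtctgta
Ly6a, Taf4-inactivated list alone, past the 3′ end of the gene (chr15:74823176-74823451): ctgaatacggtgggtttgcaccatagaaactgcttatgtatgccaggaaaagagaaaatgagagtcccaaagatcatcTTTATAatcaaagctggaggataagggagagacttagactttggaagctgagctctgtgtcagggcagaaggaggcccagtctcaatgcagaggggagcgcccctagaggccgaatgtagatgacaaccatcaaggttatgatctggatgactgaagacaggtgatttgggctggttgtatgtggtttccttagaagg
Anxa1, control list alone, past the 3′ end of the gene (chr19:20413588-20413887): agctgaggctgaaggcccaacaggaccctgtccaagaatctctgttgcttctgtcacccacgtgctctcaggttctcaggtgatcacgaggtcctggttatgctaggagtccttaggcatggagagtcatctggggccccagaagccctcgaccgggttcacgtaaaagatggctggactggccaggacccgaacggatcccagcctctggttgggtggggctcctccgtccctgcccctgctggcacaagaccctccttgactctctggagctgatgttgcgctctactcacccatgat

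The Il33 stretch before the gene held 2 AP-1 matches, at positions 118 and 134 from its first base. At least 1 AP-1 match stood in 7.49% of the central 300 bases of 53237 control peaks of that width or more that lay over 1 kb from any start site. The intronic Il33 stretch held a TATA box match on the minus strand (9.77% of the same control stretches), and the whole control peak around it also held 1 TEAD and 1 HNF4 match. The Ly6a stretch held a TATA box match on the minus strand (10.8% of 41471 Taf4-inactivated stretches of its length). No motif of the list matched the Anxa1 stretch, but the whole control peak around it held 1 TEAD match. Over all distal peaks of the members, AP-1 matches numbered 8 in 19297 bases of the control list, or 0.415 per kb, against 0.267 per kb in all control peaks over 1 kb from any start site. In the Taf4-inactivated list they numbered 6 in 11639 bases, or 0.516 per kb, against 0.372 per kb. TEAD and HNF4 matches were also denser in the members' peaks than in the compared peaks of the control list, at 4 and 1 matches. So was the interferon response element, with both of its 2 matches in 1 peak. In the Taf4-inactivated list TEAD (0.258 against 0.153 per kb) and HNF4 (0.0859 against 0.0508 per kb) were denser. The interferon response element was sparser there (0.0859 against 0.0928 per kb). The TATA box was sparser in the members' control peaks (0.207 against 0.338 per kb) and GATA was denser (0.674 against 0.414 per kb). In the Taf4-inactivated list GATA was sparser (0.430 against 0.545 per kb), and the TATA box stood at 0.430 against 0.418 per kb. All these counts are small, and some distal peaks of the members cover start sites of neighbouring genes, which the compared peaks do not. A match in the overlap of a peak with its counterpart in the other list counts in both lists.

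The lists differ in depth. The background level solved from the fold and the p of the peaks was 12.1 reads for control and 7.35 reads for Taf4-inactivated enteroids, a ratio of 1.65. The fold of a peak is measured against the background of its own library, so peaks were compared by rank, as the percentile of fold within their own list. The top 25% of a list began at a fold of 2.23 in the control list and 2.96 in the Taf4-inactivated list. Among markers of gut epithelium (Epcam, Cdh1, Vil1, Cdx2, Krt8 and Krt20), 5 of 6 had a start site peak in the control list and 6 of 6 in the Taf4-inactivated list. Of fibroblast markers 3 of 5 had one in each list. Of leukocyte markers 1 of 5 had one in the control list and 0 of 5 in the Taf4-inactivated list. Endothelial markers gave 2 of 4 and 1 of 4. Over all protein-coding genes the share was 68.4% in the control list and 65.5% in the Taf4-inactivated list. Ptprc, the pan-leukocyte gene, had no start site peak in either list. The start site peak of the endothelial gene Kdr ranked at percentile 93.1 in the control list and 35.9 in the Taf4-inactivated list. Among fibroblast genes Pdgfra (74.3 to 33.3) and Col1a2 (52.7 to 30.0) also ranked lower there, and Col1a1 (10.7 to 18.1) ranked higher. Of the 5 epithelial markers with a peak in both lists, 2 ranked lower and 3 higher. Whether other cell types had a part in the values of the members was not tested.

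Start site peaks were present for Clu and Ly6a in both lists, for Il33 in the Taf4-inactivated list alone, and for Anxa1 and Spp1 in neither list. The count was thus 2 of 5 genes in the control list, where 68.4% of all protein-coding genes had a start site peak, and 3 of 5 in the Taf4-inactivated list, where 65.5% had one. Peaks in both lists were found for 2 of 5 genes against 62.7% of coding genes, and peaks in neither for 2 of 5 against 28.7%. The gene with a peak in the Taf4-inactivated list alone, Il33, belongs to a class of 2.90% of coding genes, and none of the 5 fell in the class with a peak in the control list alone, which held 5.70%.

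**Figure D1:**
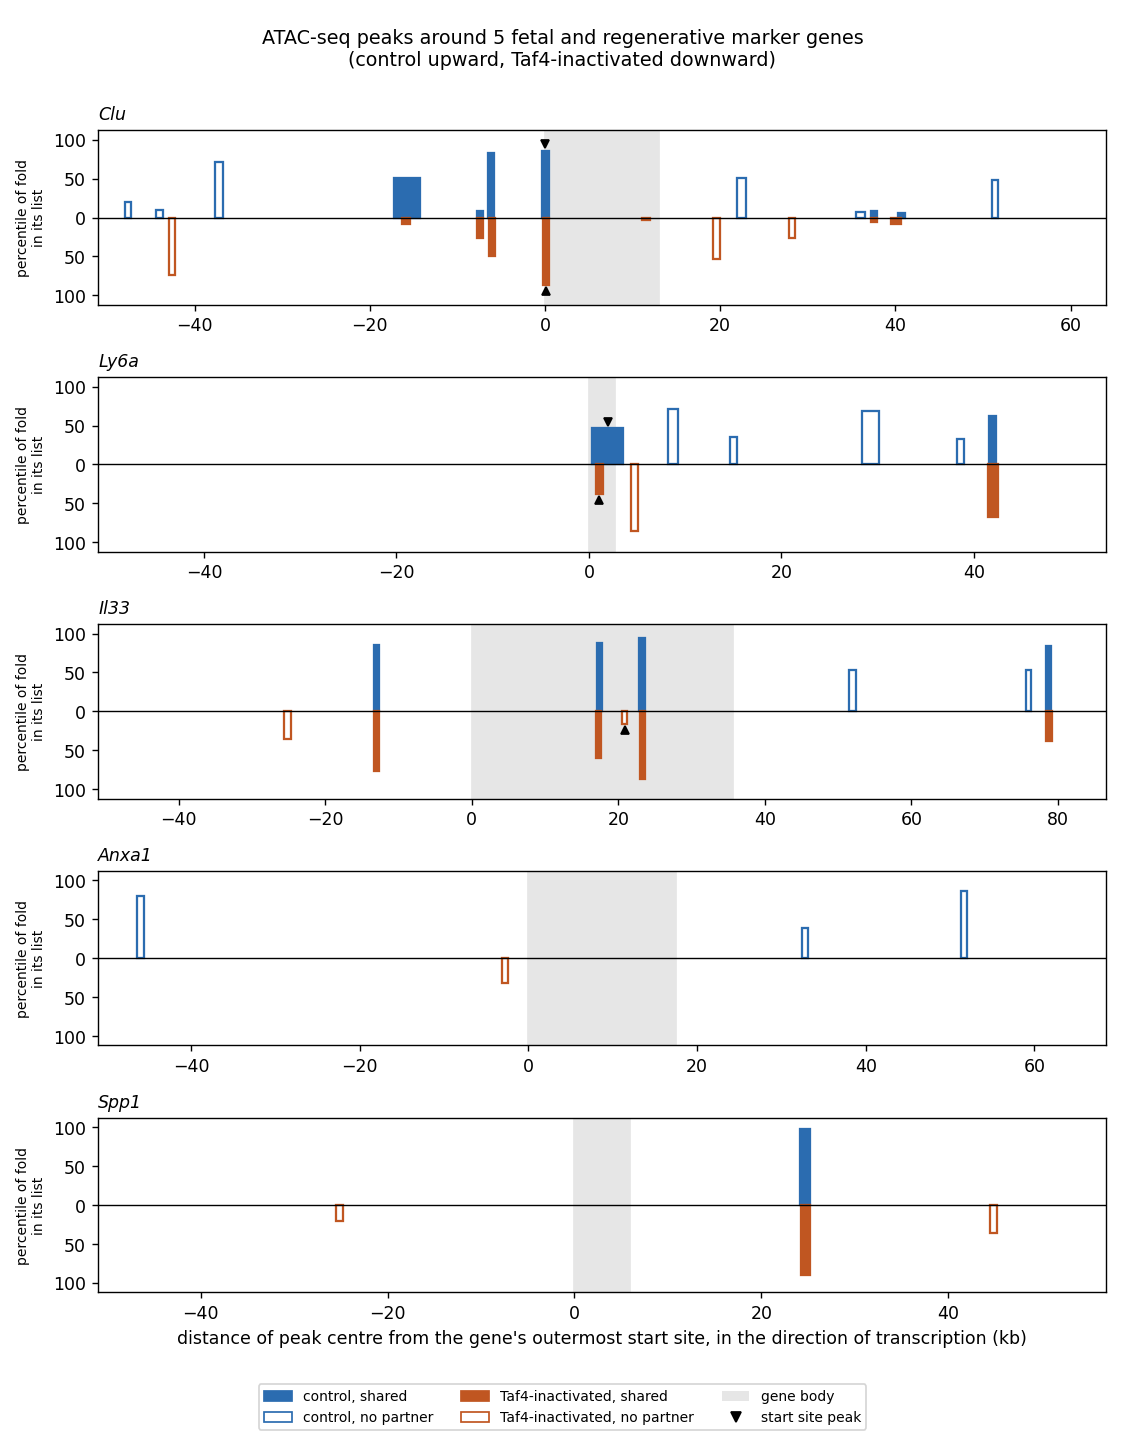
Peaks around the 5 genes, by distance of the peak centre from the outermost start site in the direction of transcription (kb, x axis) and percentile of fold within the library's own list (y axis, control upward and Taf4-inactivated downward). Filled bars overlap a peak of the other list, open bars do not, grey marks the gene body, triangles mark start site peaks, and peaks narrower than 0.7 kb are drawn 0.7 kb wide. The Clu start site peaks are at percentiles 86.2 and 86.3, Anxa1 and Spp1 have none, and no peak lies in the 50 kb before Ly6a.

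Clu (ENSMUSG00000022037.8, mm9 chr14:66587320-66600385, plus strand, 9 annotated start sites) had the strongest start site peak of the members. It lay over the 5′ untranslated exon at chr14:66586992-66587737 in the control list (746 bp, fold 2.43, percentile 86.2) and at chr14:66587164-66587633 in the Taf4-inactivated list (470 bp, fold 3.45, percentile 86.3). The rank differed by 0.17 percentile points, the smallest difference among the 13 peak pairs of the members. Among coding genes with a start site peak, the median percentile was 86.5 in the control list and 81.5 in the Taf4-inactivated list, so Clu ranked just below the median in the control list and above it in the Taf4-inactivated list. The whole Taf4-inactivated peak was contained in the control peak.

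Clu also had the most distal peaks, 11 in the control list and 9 in the Taf4-inactivated list, of which 5 in each list had a partner, meaning an overlap of at least 1 bp with a peak of the other list. The highest distal peak of the control list lay 6.1 kb before the start site at chr14:66580911-66581434 (524 bp, percentile 83.0). Its partner at chr14:66581188-66581415 was 228 bp wide and at percentile 49.1. Measured against its own background each, the fold was 2.35 in the control list and 2.44 in the Taf4-inactivated list, so the rank was lower and the fold was not. The pair 15.7 kb before the gene, at the start sites of the neighbouring gene Scara3, was at percentile 51.1 and 2948 bp wide in the control list and at percentile 8.23 and 920 bp wide in the Taf4-inactivated list. A pair 7.4 kb before the gene ranked higher in the Taf4-inactivated list, at percentile 26.5 against 7.90. The remaining Clu pairs, past the gene in and near Gulo, were below percentile 10 in both lists. The highest distal Clu peak of the Taf4-inactivated list was in an intron of Scara3, 42.6 kb before Clu (265 bp, percentile 73.6), and it had no partner. Within the Clu gene body beyond the start sites, the control list had no peak and the Taf4-inactivated list had 1, which was 844 bp wide and at percentile 2.67.

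Il33 (ENSMUSG00000024810.9, mm9 chr19:29999604-30035194, plus strand, 4 annotated start sites) was the member whose start site status differed between the lists. No peak lay within 1 kb of its outermost start site in either list. At the inner start site, 20.8 kb into the gene, the Taf4-inactivated list had a peak at chr19:30020195-30020712 (518 bp, fold 2.16, percentile 16.5, −log10 q 1.32) and the control list had none. It was absent once a −log10 q of 2 was required.

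Distal Il33 peaks were mostly shared. The control list had 6 and the Taf4-inactivated list 5, and 4 in each list had a partner. The highest in both lists was in an intron 23.2 kb after the outermost start site, at chr19:30022461-30023213 in the control list (753 bp, percentile 93.8) and chr19:30022523-30023218 in the Taf4-inactivated list (696 bp, percentile 87.1). It overlapped by 691 bp. The peak 13.0 kb before the gene was at percentile 85.4 in the control list and 77.2 in the Taf4-inactivated list. In the intronic pair 17.5 kb after the start site the percentile was 88.3 in the control list and 59.6 in the Taf4-inactivated list. In the pair at the start site of Trpd52l3, 78.7 kb away, it was 83.6 and 38.7. All 4 pairs thus ranked lower in the Taf4-inactivated list, by 6.74 to 44.9 points. The control list alone had peaks 52.0 and 76.0 kb away, at percentiles 53.3 and 53.5, and the Taf4-inactivated list alone had 1 at 25.2 kb before the gene, at percentile 35.6.

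Spp1 (ENSMUSG00000029304.8, mm9 chr5:104864137-104870069, plus strand, 6 annotated start sites) had no peak at a start site or in the gene body in either list. The control list had 1 distal peak, 24.7 kb away at chr5:104888280-104889358 (1079 bp, percentile 97.7), and the Taf4-inactivated list had a partner at chr5:104888344-104889386 (1043 bp, percentile 89.5). This pair covers the start site of Pkd2, which encodes a calcium-permeable cation channel, so the highest-ranked distal peak of all members belongs to the promoter of another gene. The Taf4-inactivated list alone had 2 more, 25.2 kb before the gene (839 bp, percentile 20.1) and 44.9 kb after its start, in Pkd2 (776 bp, percentile 35.5). Spp1 was the member with fewer distal peaks in the control list than in the Taf4-inactivated list, 1 against 3, a direction seen in 19.1% of coding genes.

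Ly6a (ENSMUSG00000075602.4, mm9 chr15:74825308-74828064, minus strand, 1 annotated start site) was given a start site peak in each list, but neither reached the start site. The control peak at chr15:74824477-74827758 spanned 3282 bp, from past the 3′ end of the gene to 306 bp inside the start site (fold 2.01, percentile 46.8). The Taf4-inactivated peak at chr15:74826697-74827285 was 589 bp wide, lay inside the control peak and stopped 779 bp short of the start site (fold 2.32, percentile 38.3). The rank difference was −8.47 points by fold and −22.0 points by −log10 p. Both overlapped coding exons of Ly6a. Ly6a lies in a cluster of related genes, and 32.7% of the 50-base stretches within 1 kb of its start site occurred more than once in mm9, against 0%, 7.65%, 0% and 0.850% at the outermost start sites of Clu, Anxa1, Spp1 and Il33. The authors kept uniquely mapping reads alone, and such stretches cannot give a uniquely mapping read of that length. Whether repeats had a part in where the Ly6a peaks ended was not tested.

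Distal peaks of Ly6a numbered 5 in the control list and 2 in the Taf4-inactivated list, and all lay past the 3′ end of the gene. In the 50 kb before the gene, where neither list had a peak, 46.3% of the 50-base stretches were repeated, against 9.27% in the 50 kb past it. Whether this had a part in the absence of peaks was not tested. The shared distal peak, 42.0 kb from the start site, covered a start site of Ly6e, another member of the family, and was at percentile 62.1 and 67.5. The highest distal control peak (chr15:74818819-74819816, 998 bp, percentile 71.2) had no partner. The highest distal Taf4-inactivated peak was the one shown above by its sequence, 276 bp wide at fold 3.41 and percentile 85.6, and had no partner either. It lay 4.8 kb from the start site, and none of its 50-base stretches occurred elsewhere in the genome. It was the one peak without a partner in the top 25% of the Taf4-inactivated list among all members.

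Anxa1 (ENSMUSG00000024659.7, mm9 chr19:20447918-20465434, minus strand, 7 annotated start sites) had no start site peak and no shared peak. The control list had 3 distal peaks. They lay 51.7 kb after the start (chr19:20413406-20414070, 665 bp, percentile 86.8), 46.0 kb before it (chr19:20510956-20511856, 901 bp, percentile 79.5) and 32.8 kb after it (582 bp, percentile 39.2). The first 2 were the peaks without a partner in the top 25% of the control list among all members. The Taf4-inactivated list had 1 peak, 2.8 kb before the outermost start site at chr19:20468063-20468406 (344 bp, percentile 31.9), with 2 AP-1 matches in it. No annotated start site of another gene lay within 1 kb of any of the 4 peaks, and all 4 were intergenic. With start site peaks taken within 5 kb, Anxa1 would count among the genes with one in the Taf4-inactivated list and Il33 among those in the control list, giving 3 of 5 in the control list and 4 of 5 in the Taf4-inactivated list. The shares of all coding genes at 5 kb are not given here.

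**Figure D2:**
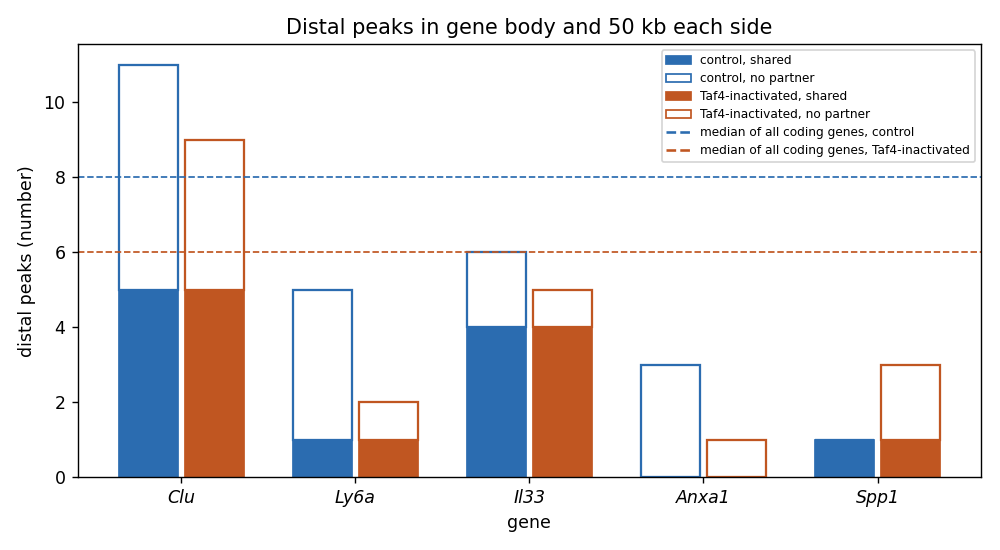
Number of distal peaks (y axis) of each gene in the control and the Taf4-inactivated list, split into peaks that overlap a peak of the other list (filled) and peaks that do not (open). Dashed lines are the medians over all protein-coding genes, 8 in the control list and 6 in the Taf4-inactivated list, and Clu is the one member above both.

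Over the 5 genes the distal peaks numbered 26 in the control list and 20 in the Taf4-inactivated list. Clu, with 11 and 9, was above the median of coding genes, which was 8 and 6, and the other members were below it in both lists. Scaled by the length of the window, Clu had 9.73 and 7.96 distal peaks per 100 kb, and Spp1 and Anxa1 had 0.944 and 2.55 in the control list and 2.83 and 0.851 in the Taf4-inactivated list, beside medians of 5.64 and 4.43. In 4 of the 5 genes the control list had more distal peaks, as it had for 58.5% of coding genes.

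Of the 26 distal control peaks 15 had no partner in the Taf4-inactivated list, or 57.7% (exact Clopper-Pearson 95% interval 36.9 to 76.6%, counting error only), against 48.8% over the distal peaks of all coding genes. Of the 20 distal Taf4-inactivated peaks 9 had no partner, or 45% (23.1 to 68.5%), against 35.8%. Both intervals held the value of all genes. Without the peaks within 1 kb of any start site the shares were 14 of 20 (70%) and 9 of 15 (60%), beside 61.5% and 48.8% of all peaks of that kind. The members' peaks without a partner ranked lower than those with one, at a median percentile of 50.9 against 83.0 in the control list and 35.5 against 49.1 in the Taf4-inactivated list. When the control peaks were scaled to the depth of the Taf4-inactivated library, 8 of the 15 without a partner fell under 2.87, the smallest −log10 p among the Taf4-inactivated peaks. The same scaling put 4 of the 13 control peaks with a partner, start site peaks included, below it.

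**Figure D3:**
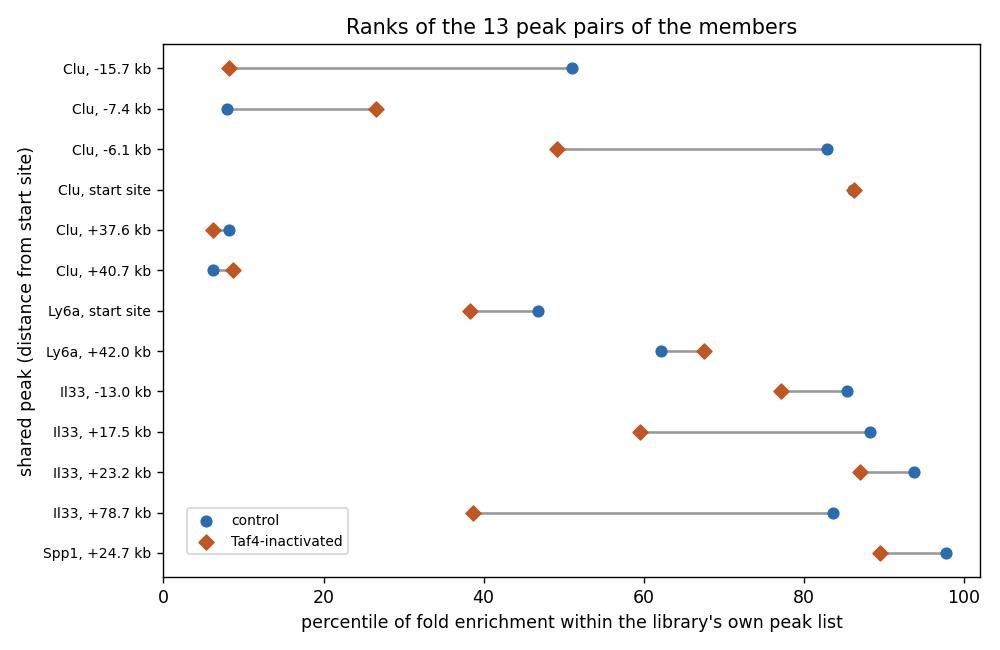
The 13 pairs of overlapping peaks of the members, with the percentile of fold in the control list (circles) and the Taf4-inactivated list (diamonds) on the x axis and the distance from the outermost start site (kb) as the name of each row. In 9 of 13 pairs the diamond lies to the left, and the Clu start site pair is nearly level at 86.2 and 86.3.

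The lists shared 13 peak pairs at these genes, 2 at start sites and 11 distal. In 9 of the 13 pairs the peak ranked lower in the Taf4-inactivated list, against 59.8% of 42491 pairs over the genome. The median difference was −8.15 percentile points for the members and −2.98 for all pairs. The largest differences towards a lower rank were at the start sites of neighbouring genes, in the Trpd52l3 pair near Il33 (−44.9 points) and in the Scara3 pair near Clu (−42.9 points), and the largest towards a higher rank was in the Clu pair 7.4 kb before the gene (18.6 points). Ranked by −log10 p in place of fold, 11 of the 13 pairs were lower, against 62.6% of all pairs, and the median difference was −10.5 points against −3.83.

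**Figure D4:**
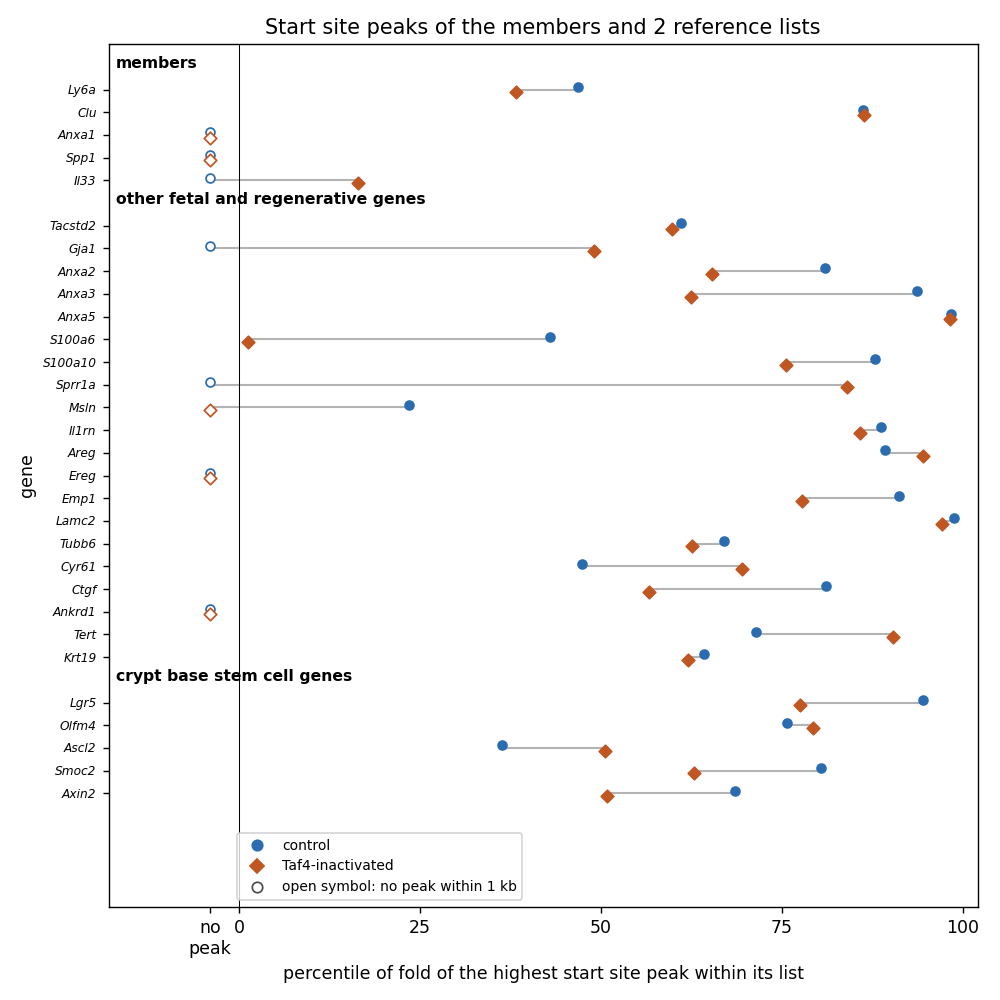
Percentile of fold of the highest start site peak within its own list (x axis) for the 5 members, 20 other fetal and regenerative genes and 5 crypt base stem cell genes, in the control list (circles) and the Taf4-inactivated list (diamonds). Open symbols at the left stand for genes without a peak within 1 kb of a start site, among them Anxa1, Spp1, Ereg and Ankrd1 in both lists.

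The wider set of 20 genes of fetal-like or regenerating gut epithelium gave a start site peak in 16 genes of the control list and 17 of the Taf4-inactivated list, with 15 in both, beside 68.4%, 65.5% and 62.7% of all coding genes. Msln, which encodes a surface protein of mesothelium, had one in the control list alone, at percentile 23.4. Gja1, a gap junction gene, and Sprr1a, a gene of the cornified envelope that is induced in injured epithelia, had one in the Taf4-inactivated list alone, at percentiles 49.0 and 84.0. Ereg, an EGF family ligand, and Ankrd1, a target of YAP, had none in either list. Of the 15 genes with a peak in both lists 12 ranked lower in the Taf4-inactivated list and 3 ranked higher, and lower was the direction of 65.9% of the 14022 coding genes with a peak in both. The largest differences were in S100a6, a calcium-binding protein gene (42.9 to 1.27), Anxa3, another annexin gene (93.7 to 62.4), and Ctgf, a secreted target of YAP (81.1 to 56.6). The 3 genes that ranked higher, named here after their values were seen, were Cyr61, also a target of YAP (47.4 to 69.5), Tert, the telomerase gene (71.4 to 90.4), and Areg, an EGF family ligand (89.2 to 94.5).

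The 5 crypt base stem cell genes Lgr5, Olfm4, Ascl2, Smoc2 and Axin2 each showed a start site peak in both lists. Of all coding genes 62.7% did. In the Taf4-inactivated list 3 of the 5 were lower in rank and 2 were higher. The distal peaks of these 5 genes numbered 54 and 44, of which 44.4% and 31.8% had no partner. Over the distal peaks of all coding genes the shares were 48.8% and 35.8%. The median distal count per gene was 11 in both lists for the stem cell genes, and 5 and 3 for the 5 members. For all coding genes it was 8 and 6. These counts were not scaled by window length. The windows of Lgr5 (237470 bp) and Smoc2 (225285 bp) were wider than that of any member (at most 135591 bp). The wider fetal and regenerative set had 146 and 135 distal peaks. Of these 44.5% and 38.5% had no partner, beside the same shares of all coding genes.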

How the data were processed

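The data were ATAC-seq peaks of 1 control library and 1 Taf4-inactivated library. Per the labels and the study's methods, the authors mapped reads to mm9 with Bowtie 1.0.0, where reads with several positions were discarded. Broad peaks were called per library with MACS2 2.1.1 (no model, extension of 200 bp). Reads were converted with bcl2fastq 2.17.1.14 per the labels. The deposited score is 10 times the −log10 q, the deposited fold is the enrichment over local background, and the deposited −log10 p and −log10 q are averages over a peak. The treatment of duplicate and mitochondrial reads is not given in the sources used here. Lists depend on depth, and read numbers were not used here.

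Positions were converted to 1-based coordinates. Peak ends lay within the chromosomes of NCBIM37 (mm9), and the gene models were GENCODE's for that build. Python 3.11.15, numpy 2.4.6, pandas 2.3.3, scipy 1.17.1 and matplotlib 3.10.9 were used. Overlaps, the depth estimate (background level that gives both fold and Poisson p, 5th percentile among the 10% narrowest peaks), the count of repeated stretches and the motif reader were tested on simulated data or against bedtools 2.31.1, and none of 9 steps was off by more than 2%. The simulated p values of the depth test came from the same formula that the estimate inverts. That test checked the calculation and could not check the depth ratio of the real peaks. The members, lists and motifs were chosen with earlier results of these data known. Named peaks were all start site peaks, the highest distal peak per gene and list, and peaks without a partner in the top 25% of a list. Of the wider list, genes with a start site peak in 1 list and the 3 largest rank differences were named; other pairs named in the text were chosen after their values were seen. Alternatives changed the q threshold, start site distance, flank, width, overlap and ranking value.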

Additional observations from a re-analysis of the deposited data

How the results depend on the processing

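The number of members with a start site peak was within 1.5 times the values given when start sites were taken within 5 kb (3 and 4 genes) or from protein-coding transcripts alone (2 and 3). Requiring a −log10 q of at least 2 left 1 gene, Clu, in the Taf4-inactivated list against 2 in the control list, and a −log10 q of at least 5 left 1 in each. The shares of all coding genes under these changed rules are not given here, so these counts have no background beside them. The distal counts moved most. At a −log10 q of 2 they were 15 in the control list and 9 in the Taf4-inactivated list, at 5 they were 2 and 4, with a flank of 20 kb they were 12 and 12, and with 100 kb they were 45 and 32. With peaks of at least 300 bp the Taf4-inactivated count was 12. The share of distal control peaks without a partner was 0% of 2 peaks at a −log10 q of 5. It was 60% at a −log10 q of 2, 41.7% with a flank of 20 kb and 55.6% with 100 kb. With an overlap of 50% of both peaks required it was 73.1%. The Taf4-inactivated share in these 4 settings was 33.3%, 41.7%, 37.5% and 65%. Shares of all coding genes under these settings are not given here, so the side on which the members fall is open. The Clu start site difference, 0.17 points as given, was −2.88 points when ranked by −log10 p and 5.80 points when ranked within start site peaks. That of Ly6a, −8.47 points as given, was −22.0 and −7.18 points. In all, 23 of the 36 alternative values of these counts and shares stayed within 1.5 times the values given and 13 did not. That range is wide for a share. Taf4-inactivated shares of 33.3% and 65% both fell within it, beside the 45% given. No paired analysis was possible because each genotype had a lone library, which also could not be left out. Depth and genotype cannot be told apart in these lists, and how far depth limited the weak peaks of either was not tested.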
